A study of Mus musculus with 46 samples.

Results

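The immediate early and activator protein 1 (AP-1) genes Fos, Fosb, Jun, Junb, Jund, Egr1, Atf3, Ier2, Ier3 and Nr4a1 were chosen by name, and all 10 were found once each among the 53465 genes of the expression table. They were followed in proximal tubular (PT) cells (LTL+), macrophages (F4/80+), endothelial cells (CD31+) and stromal cells (PDGFRB+), which had been sorted from kidneys of wild-type mice. The mice had undergone sham surgery, unilateral ureteric obstruction (UUO) or obstruction followed by its reversal (rUUO). All were male C57BL/6 mice aged 8 to 12 weeks per the study's methods, which give culls at day 2 and day 7 of UUO and 14 days after reversal. The sample labels do not say which UUO day a sample came from, nor that replicates came from separate mice, so that p-values measure the spread between these samples, which may be technical. The 44 samples were 3 sham, 4 UUO and 3 rUUO for PT cells, 4, 4 and 3 for macrophages, 4, 3 and 4 for the endothelium, and 4 of each surgery for the stroma. LTL is a lectin that binds the proximal tubule, so that each population is a sorting gate, not a purified cell type.

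Immediate early genes are transcribed within minutes of a stimulus, without new protein synthesis, from promoters that are already poised. Fos and Jun family proteins pair through leucine zippers to form AP-1, a transcription factor that binds DNA as a dimer. Growth factors, cytokines, mechanical stretch and stress kinases switch these genes on, and in the kidney they are known for their response to injury. Enzymatic and mechanical dissociation of a tissue is also known to induce them.

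Values were FPKM, fragments scaled to transcript length and to the mapped fragments of the sample, so that levels can be compared between genes. Changes are differences of log2(FPKM + 1) with their standard error (SE), a scale that understates the change of genes at low FPKM. A gene is said to have risen or fallen where limma gave a Benjamini-Hochberg adjusted p under 0.05 over all genes tested. The table holds no counts, so the depth of the samples is unknown and their number limits the precision. The FPKM of a sample summed to between 586929 and 884982, of which the 37 mitochondrial genes took 58.7% to 75.6% in PT cells and 20.2% to 45.8% elsewhere. Defining markers were highest in the population they mark, and macrophage UUO replicate 2 stood apart. It had 3791 FPKM summed over 6 macrophage markers, against 5185 to 7960 in the other macrophage samples, and a mitochondrial share of 37.8% against 20.4% to 28.0%. The table's header also numbers its libraries, and macrophage sham (41 to 44) and stromal sham (45 to 48) carry the highest numbers, with no source for what these numbers mean.

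Upstream sequences are shown first, for the members that share the letters TGACG, the core of the cAMP response element that ATF and CREB family proteins bind. RefSeq windows on GRCm38.p6, the assembly of the table's coordinates, were searched for 8 of the 10 members. The search held no window for Egr1 or Ier2, so that the motif counts below say nothing about these genes. Within 250 bases before the start site and on both strands, 5 of the 8 held TGACG, against 17.8% of 32851 windows of the same length. The bases just before each start site are printed 5′ to 3′ on the strand of the gene, with TGACG, or CGTCA where it lies on the other strand, in capitals.
Fos, chr12:85473765-85473889, plus strand: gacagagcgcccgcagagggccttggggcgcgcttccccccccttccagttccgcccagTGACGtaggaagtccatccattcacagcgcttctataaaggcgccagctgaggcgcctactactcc
Fosb, chr7:19310046-19310170, minus strand: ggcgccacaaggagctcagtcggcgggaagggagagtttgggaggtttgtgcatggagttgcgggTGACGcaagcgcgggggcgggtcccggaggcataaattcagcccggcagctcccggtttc
Junb, chr8:84978749-84978873, minus strand: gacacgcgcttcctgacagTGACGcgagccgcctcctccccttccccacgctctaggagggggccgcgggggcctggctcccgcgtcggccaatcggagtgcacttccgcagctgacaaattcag
Atf3, chr1:191183334-191183458, minus strand: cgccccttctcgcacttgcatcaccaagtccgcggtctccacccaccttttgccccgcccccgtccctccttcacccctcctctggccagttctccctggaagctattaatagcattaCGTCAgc
Nr4a1, chr15:101266721-101266845, plus strand: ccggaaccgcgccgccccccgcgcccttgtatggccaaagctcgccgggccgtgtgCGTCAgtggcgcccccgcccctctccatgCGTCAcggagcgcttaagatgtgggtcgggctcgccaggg
The letters began 66 bases before the start site in Fos, 60 in Fosb, 106 in Junb and 7 in Atf3, and in Nr4a1 they occurred at 69 and at 40 bases. The Atf3 window lies before an internal start, since GENCODE M21 places the gene at chr1:191170296-191218039 on the minus strand. Among the 8 members, only Fos held TATAAA (12.4% of all windows). The SP1 box GGGCGG was in 6 of 8 (32.7% of all windows). The full element TGACGTCA, which contains the shorter letters, was in none of the 8 (1.55% of windows). The AP-1 motif TGANTCA (6.75% of windows) and the CArG box that serum response factor binds (1.47%) were in none either, which says only that these letters are not in these windows.

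In sham kidneys the 10 genes were lowest in PT cells. Every member was lower in PT cells than in macrophages, endothelial cells and stromal cells, 10 of 10 in each comparison, where 49.8%, 52.2% and 58.1% of the 14332 genes tested were lower in PT cells. The median difference of the members was -2.96 against macrophages, -2.44 against endothelial cells and -2.49 against stromal cells, and that of all genes tested was -0.84, -0.92 and -1.05. The mitochondrial share of PT cells, given above, moves with this difference. Quantile normalization, which brings the median of all genes near 0, left 6 of the 10 lower than in stromal cells and turned the sign of Jund against endothelial cells (0.16) and stromal cells (0.12). It also ended the calls of Fosb (-0.21, limma adjusted p = 0.671) and Atf3 (-0.32, 0.485) against endothelial cells and of Jund against macrophages (-0.37, 0.435). Rescaling without mitochondrial genes ended the call of Jund in all 3 comparisons (limma adjusted p = 0.315, 0.516 and 0.202) and that of Fosb against endothelial cells (0.0623). The Jund calls against endothelial and stromal cells were also lost without PT sham replicates 1 or 4, and that against endothelial cells without endothelial sham replicates 2, 3 or 4 (0.0551 to 0.257). In these bulk samples, fewer cells that express a gene and less RNA per cell cannot be told apart.

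Among the other populations, macrophages had the most Atf3, a stress-induced repressor and AP-1 partner of the ATF family. Sham macrophages held 17.1, 22.0, 27.9 and 34.9 FPKM of Atf3, endothelial cells 2.02, 1.81, 2.64 and 2.87, stromal cells 2.47, 4.70, 1.40 and 1.99, and PT cells 0.29, 0.48 and 0.38. Every macrophage sample lay above every other sham sample. Macrophages exceeded endothelial cells by 2.96 (SE 0.32, limma adjusted p = 2.56e-10) and stromal cells by 2.89 (SE 0.32, limma adjusted p = 3.88e-10), and the endothelial and stromal levels did not differ beyond their spread (-0.06, SE 0.32, limma adjusted p = 0.932). Fos also stood higher in macrophages than in endothelial cells (1.81, SE 0.26, limma adjusted p = 1.95e-07) and stromal cells (0.95, SE 0.26, limma adjusted p = 0.00232), although the second difference was 0.51 (limma adjusted p = 0.0976) after rescaling without mitochondrial genes. Ier3 had the reverse order, with macrophages 1.24 below endothelial cells on the log2 scale (SE 0.28, limma adjusted p = 0.000397). Junb lay at 0.70 between macrophages and endothelial cells (limma adjusted p = 0.0501), and passed when any 1 of 13 libraries was left out. In all, 6 of the 10 members differed between macrophages and endothelial cells, 5 between macrophages and stromal cells and 5 between endothelial and stromal cells, where 43.4%, 46.2% and 23.7% of all genes tested did so. Jund and Nr4a1 passed in none of these 3 comparisons. Jun passed between macrophages and endothelial cells (0.54, limma adjusted p = 0.0333), a call lost after rescaling without mitochondrial genes (0.499) and without macrophage sham replicate 3 (0.127) or endothelial sham replicates 2, 3 or 4 (0.0554 to 0.072). The endothelial against stromal calls of Fos and Ier2 (limma adjusted p = 0.0111 and 0.0243) were lost without endothelial sham replicate 1 (0.0612 and 0.0573), and that of Ier2 also without endothelial sham replicate 3 or stromal sham replicates 3 or 4 (0.063 to 0.0783).

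Egr1, a zinc finger transcription factor, had the highest mean FPKM of the members in 11 of the 12 groups, the exception being sham endothelial cells, where Jun was higher. The lowest mean belonged to Atf3 in 5 groups, to Jund in 4 and to Nr4a1 in 3. The plot of levels by sample shows all 10 genes.

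**Figure D1:**
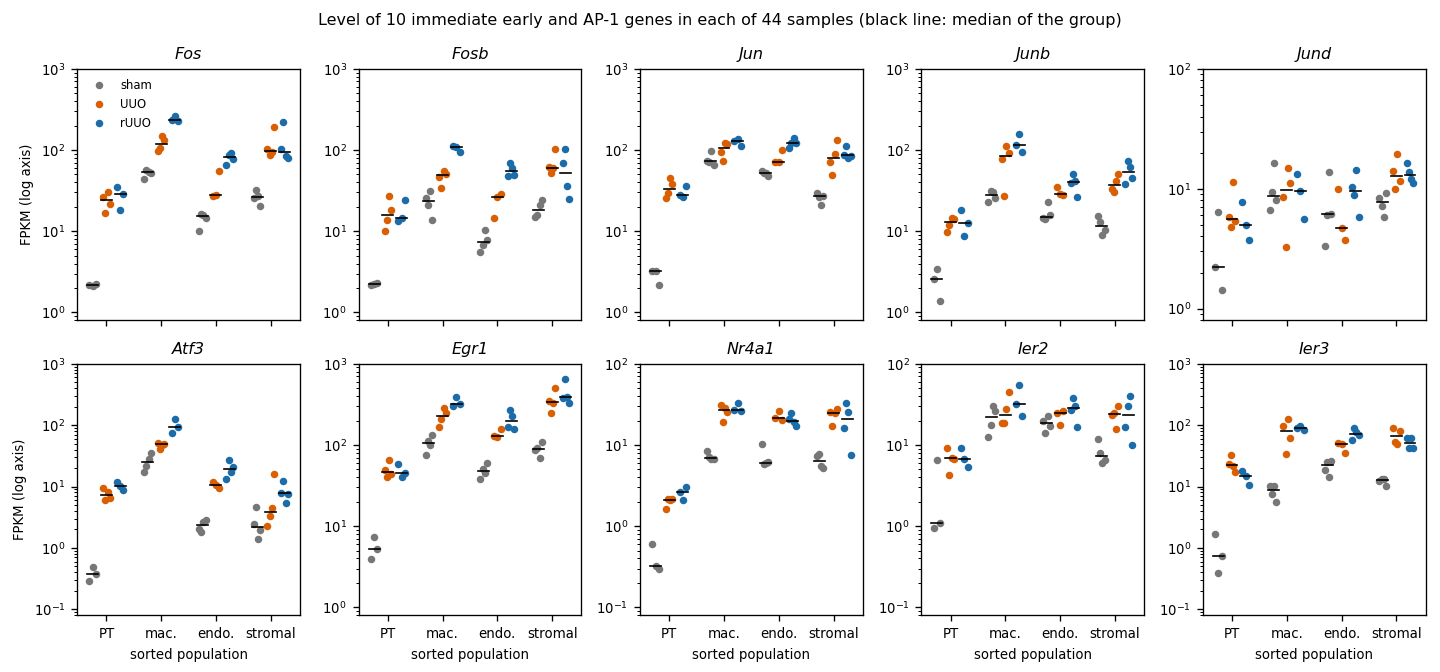
FPKM (log axis) of each gene in each of 44 samples, by sorted population (PT, macrophage, endothelial and stromal from left to right) and surgery (colour), with a black line at the median of the group. Fos in PT cells sits between 2.14 and 2.26 in sham and between 16.6 and 34.7 in UUO and rUUO, whereas the Jund groups overlap in most populations.

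Fos, the partner that gives AP-1 its strongest DNA binding, rose in all 4 populations in UUO and in rUUO. In PT cells it was 2.17, 2.14 and 2.26 FPKM in sham, 26.6, 16.6, 30.2 and 21.4 in UUO and 34.7, 18.4 and 28.7 in rUUO. In macrophages it was 43.9, 57.3, 54.2 and 52.6 in sham, 98.0, 106.7, 149.9 and 132 in UUO and 232, 262 and 225 in rUUO. The groups did not overlap between sham and either surgery, and in macrophages rUUO also lay wholly above UUO. In endothelial cells Fos was 10.1, 16.2, 16.0 and 14.6 in sham, 27.5, 27.7 and 55.3 in UUO and 66.0, 86.0, 92.5 and 78.2 in rUUO. In stromal cells it was 25.9, 32.4, 27.4 and 20.7 in sham, 101.8, 87.7, 93.7 and 191 in UUO and 101.7, 219, 85.2 and 80.6 in rUUO. Endothelial samples again lay in 3 separate steps, while stromal UUO replicate 4 and rUUO replicate 2 stood far above their groups, whose other samples overlapped. Against sham, UUO raised Fos by 2.92 in PT cells (SE 0.27, limma adjusted p = 2e-06), 1.20 in macrophages (SE 0.17, 0.00115), 1.26 in endothelial cells (SE 0.27, 0.0225) and 2.06 in stromal cells (SE 0.30, 0.000122). The rUUO changes, which share the sham samples, were 3.10, 2.19, 2.43 and 2.04 (limma adjusted p = 8.48e-06, 2.57e-05, 6.77e-05 and 0.0002). The UUO changes differed among the populations (moderated F test, limma adjusted p = 0.0012), with the PT change the largest. In endothelial cells the UUO call was lost without sham replicate 1 (0.0727) or UUO replicate 4 (0.079), with no filter on low values (0.0851) and after rescaling without mitochondrial genes (0.0636).

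Fosb, a Fos relative whose short splice form is long lived, rose in all 4 populations in UUO and in rUUO. In PT cells its sham samples (n = 3) ran from 2.17 to 2.32 FPKM, those of UUO (n = 4) from 10.1 to 26.9 and those of rUUO (n = 3) from 13.3 to 24.3, and in macrophages from 13.6 to 31.7 (n = 4), 34.6 to 54.7 (n = 4) and 94.8 to 112 (n = 3). In endothelial cells it ranged from 5.58 to 10.3 (n = 4), 14.4 to 28.6 (n = 3) and 47.5 to 68.6 (n = 4), and in stromal cells from 15.1 to 24.1, 52.4 to 102.6 and 25.1 to 102.1 (n = 4 each). No sham range met a UUO or rUUO range, and in macrophages and endothelial cells the UUO and rUUO ranges were separate too. It rose by 2.41, 1.03, 1.46 and 1.78 in UUO in the 4 populations, taken in the same order (limma adjusted p = 6.2e-05, 0.0254, 0.0109 and 0.00153). In rUUO it stood 2.46, 2.20, 2.75 and 1.39 above sham (limma adjusted p = 0.000283, 0.000253, 4.28e-05 and 0.013). The UUO call was lost in macrophages without sham replicates 2 or 4 or UUO replicates 1, 3 or 4 (0.053 to 0.0739) and with no filter on low values (0.071), and in endothelial cells without UUO replicate 2 (0.0536). The stromal rUUO call was lost with no filter on low values (0.0521).

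Jun, the founding AP-1 subunit, had the largest F of the members for a difference among populations. In PT cells it was 3.26, 3.21 and 2.20 FPKM in sham, 25.9, 29.4, 44.99 and 37.7 in UUO and 27.7, 26.5 and 35.9 in rUUO. In stromal cells it was 29.9, 26.4, 20.9 and 27.2 in sham, 71.1, 49.3, 90.4 and 132 in UUO and 86.4, 112, 78.7 and 84.9 in rUUO. In both populations sham lay wholly below UUO and rUUO, and the latter overlapped. In macrophages Jun was 73.5, 71.2, 96.2 and 66.1 in sham, 93.9, 73.4, 122 and 119 in UUO and 128, 137 and 113 in rUUO. In endothelial cells it was 55.5, 51.4, 52.2 and 48.6 in sham, 71.2, 70.5 and 100.04 in UUO and 105.6, 122, 142 and 122 in rUUO. Sham macrophages thus held more Jun than PT cells did in any group, and their sham and UUO ranges overlapped, whereas the 3 endothelial ranges were separate. The UUO change was 3.17 in PT cells (SE 0.24, limma adjusted p = 4.12e-07) and 1.60 in stromal cells (SE 0.25, limma adjusted p = 0.000193), and values of 0.39 in macrophages and 0.61 in endothelial cells did not pass (limma adjusted p = 0.278 and 0.124). In rUUO, Jun stood 3.00 above sham in PT cells, 1.75 in stromal cells and 1.22 in endothelial cells (limma adjusted p = 5.81e-06, 0.000135 and 0.00103), and the macrophage value of 0.72 did not pass (limma adjusted p = 0.0796). Without macrophage UUO replicate 2, the sample that stood apart, the same 0.72 passed (limma adjusted p = 0.0284). The changes differed among populations in UUO (moderated F test, limma adjusted p = 8.37e-09) and in rUUO (limma adjusted p = 1.34e-05).

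Junb, a Jun relative that activates more weakly and can oppose Jun, rose in UUO in PT, macrophage and stromal samples. For sham, UUO and rUUO in turn, it ranged in PT cells from 1.38 to 3.41, 9.71 to 14.7 and 8.72 to 18.1 FPKM, and in stromal cells from 9.02 to 15.2, 30.7 to 51.0 and 37.9 to 73.3. In macrophages it ranged from 23.2 to 31.3, 27.2 to 113 and 93.4 to 157, and in endothelial cells from 14 to 23.2, 28.3 to 34.8 and 26.3 to 50.5. Only macrophage UUO replicate 2, at 27.2 FPKM, fell inside a sham range. The UUO values were 2.01 in PT, 1.29 in macrophage, 0.86 in endothelial and 1.63 in stromal samples (limma adjusted p = 0.000196, 0.0471, 0.115 and 0.000154), and the rUUO values were 2.03, 2.08, 1.17 and 2.08 (limma adjusted p = 0.000952, 0.0066, 0.0167 and 2.82e-05). The macrophage UUO call was lost when any 1 of 10 libraries was left out, that is each of sham replicates 1 to 4, UUO replicates 1, 3 and 4 and rUUO replicates 1, 4 and 6 (0.0585 to 0.122), as well as with no filter (0.158) and after quantile normalization (0.0555). The endothelial rUUO call was lost without sham replicate 1 or rUUO replicates 1, 2 or 4 (0.0518 to 0.0695), with no filter (0.0534) and after quantile normalization (0.0575).

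Jund, the Jun family member that cells express without a stimulus, passed in 1 of its 8 comparisons with sham. Its PT values were 2.24, 6.44 and 1.44 FPKM in sham, 5.81, 4.81, 11.4 and 5.41 in UUO and 7.70, 4.99 and 3.72 in rUUO. In macrophages the 3 groups ranged from 6.66 to 16.2, 3.26 to 15.0 and 5.58 to 13.2, and in endothelial cells from 3.33 to 13.8, 3.74 to 9.96 and 5.86 to 14.5. Every pair of groups overlapped in these populations. In stromal cells Jund was 8.43, 7.17, 5.81 and 9.28 in sham, 14, 9.94, 19.3 and 11.6 in UUO and 16.2, 13.8, 12.1 and 11.3 in rUUO, both above sham in every sample. It passed in stromal UUO alone (0.74, SE 0.25, limma adjusted p = 0.0394), and this call was lost without sham replicates 1, 2 or 3, UUO replicates 1 or 3 or rUUO replicate 2 (0.0523 to 0.108), with the fit on all populations (0.147) and after rescaling without mitochondrial genes (0.11). The stromal rUUO value was 0.73 (limma adjusted p = 0.0581), and passed without UUO replicate 3 (0.0411). The PT values were 0.95 in UUO and 0.69 in rUUO (limma adjusted p = 0.0799 and 0.376), the first of which became 1.41 without sham replicate 2 (limma adjusted p = 0.0151). In macrophages and endothelial cells the UUO values were -0.16 and -0.18 (limma adjusted p = 0.874 and 0.907).

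Atf3 showed its largest change where it had been lowest. In PT cells it was 0.29, 0.48 and 0.38 FPKM in sham, 9.34, 6.01, 8.01 and 6.51 in UUO and 11.8, 10.1 and 8.91 in rUUO. In macrophages UUO samples held 50.4, 40.4, 47.7 and 49.8 FPKM and rUUO samples 74.8, 124 and 94.5, above the sham values given earlier. In endothelial cells UUO samples held 12.1, 10.5 and 9.62 and rUUO samples 13.0, 27, 17.6 and 21.01. In these 3 populations sham lay wholly below UUO and rUUO, and in macrophages and endothelial cells rUUO lay wholly above UUO. In stromal cells Atf3 was 2.24, 3.36, 4.41 and 16.2 in UUO, overlapping sham, and 7.94, 12.1, 5.43 and 7.60 in rUUO. Atf3 rose in UUO by 2.60 in PT cells (SE 0.26, limma adjusted p = 4.58e-06), 1.82 in endothelial cells (SE 0.30, 0.00339) and 0.90 in macrophages (SE 0.23, 0.0372), and the stromal value of 0.80 (SE 0.46) did not pass (limma adjusted p = 0.218). In rUUO it stood 3.02, 2.60, 1.91 and 1.38 above sham in PT, endothelial, macrophage and stromal samples (limma adjusted p = 7.73e-06, 7.93e-05, 0.000482 and 0.0499). The changes differed among populations in UUO (moderated F test, limma adjusted p = 0.00585) and in rUUO (0.0465), the second a call lost when any of 29 of the 44 libraries was left out (0.0508 to 0.113). The macrophage UUO call was lost without sham replicates 1, 2 or 3, UUO replicates 1, 3 or 4 or rUUO replicate 6 (0.0561 to 0.111), with no filter (0.0864), after quantile normalization (0.0645) and with the fit on all populations (0.0773). The stromal rUUO call was lost without sham replicates 1, 3 or 4, UUO replicates 2 or 3 or any rUUO replicate (0.0541 to 0.135), with no filter (0.128) and after rescaling without mitochondrial genes (0.0961).

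Egr1 rose in every population and in both surgeries, and each of its 8 calls held under every alternative. In PT cells it was 3.92, 7.28 and 5.17 FPKM in sham, 49.2, 40.5, 65.3 and 43.4 in UUO and 58.8, 40.1 and 45.2 in rUUO. In macrophages it was 75.7, 112, 101.2 and 133 in sham, 165, 208, 287 and 251 in UUO and 305, 389 and 320.3 in rUUO. Sham lay wholly below UUO in both populations, and the 3 macrophage ranges were separate. In endothelial cells Egr1 was 38.1, 50.6, 44.98 and 59.6 in sham, 129, 127 and 159 in UUO and 169, 269.6, 228 and 155 in rUUO. In stromal cells it was 86.7, 92.9, 68.7 and 107 in sham, 343, 250.5, 328 and 502 in UUO and 384, 640.3, 389 and 330.1 in rUUO. Sham was separate here too, and the stromal UUO and rUUO groups overlapped. The UUO changes were 2.98 (SE 0.25), 1.10 (SE 0.21), 1.51 (SE 0.22) and 1.96 (SE 0.23) in PT, macrophage, endothelial and stromal samples (limma adjusted p = 7.41e-07, 0.00863, 0.00149 and 1.44e-05). They differed among the populations (moderated F test, limma adjusted p = 0.000186). The rUUO changes were 2.94, 1.69, 2.05 and 2.25 (limma adjusted p = 6.68e-06, 0.00057, 6.77e-05 and 7.83e-06), and their difference among populations did not pass (limma adjusted p = 0.0658).

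Nr4a1, an orphan nuclear receptor induced as an immediate early gene, rose in all 4 populations in both surgeries, and gave the smallest F of the members for a difference among populations in UUO. For the 3 surgeries in turn, it ranged in PT cells from 0.3 to 0.61, 1.62 to 2.18 and 2.10 to 3.02 FPKM, and in macrophages from 6.65 to 8.31, 18.9 to 31.3 and 26.5 to 33.2. In endothelial cells it ranged from 5.85 to 10.2, 20.4 to 26.1 and 17.3 to 24.8, and in stromal cells from 5.16 to 7.68, 16.9 to 27.5 and 7.42 to 33.2. Sham was separate from UUO throughout, and from rUUO in all but stromal cells, where rUUO replicate 6 held 7.42. Nr4a1 rose in UUO by 1.10, 1.71, 1.58 and 1.73 in PT, macrophage, endothelial and stromal samples (limma adjusted p = 0.00944, 0.000336, 0.00359 and 0.00183), and in rUUO stood 1.35, 1.86, 1.44 and 1.38 above sham (limma adjusted p = 0.0132, 0.000353, 0.00443 and 0.0126). That moderated F test had a limma adjusted p of 0.448. It used log2(FPKM + 1), which understates the PT change, since mean FPKM there went from 0.41 in sham to 2.01 in UUO. In macrophages, endothelial cells and stromal cells the means went from 7.19 to 26.1, 7.025 to 22.6 and 6.415 to 23.6. Both PT calls were lost after quantile normalization (0.278 and 0.0611), and the PT rUUO call also without sham replicate 4 (0.0578).

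Ier3, an inhibitor of cell death and modulator of ERK signalling, had the largest UUO change of the members in PT cells, macrophages and stromal cells. In PT cells it was 1.71, 0.39 and 0.74 FPKM in sham, 22.9, 32.0, 21.5 and 17.5 in UUO and 17.9, 14.7 and 10.7 in rUUO. In macrophages it was 10.1, 7.43, 10.04 and 5.57 in sham, 98.2, 33.6, 128 and 61.1 in UUO and 90.6, 95.5 and 82.5 in rUUO. The sham ranges were separate, and the macrophage UUO samples spread from 33.6 to 128 FPKM, the lowest being replicate 2. In endothelial cells Ier3 was 18.8, 25.3, 14.1 and 25.9 in sham, 50.4, 49.5 and 34.5 in UUO and 57.3, 91.3, 77.6 and 68.4 in rUUO. In stromal cells it was 12.5, 13.4, 13.3 and 10.1 in sham, 88.7, 52.2, 48.8 and 81.6 in UUO and 61.2, 43.1, 60.8 and 42.7 in rUUO. No sham sample reached a UUO or rUUO sample of its population. The UUO changes were 3.68 (SE 0.30), 3.00 (SE 0.33), 1.08 (SE 0.25) and 2.33 (SE 0.23) in PT, macrophage, endothelial and stromal samples (limma adjusted p = 6.1e-07, 0.000152, 0.0379 and 2.24e-06). In rUUO Ier3 stood 3.02, 3.32, 1.78 and 1.98 above sham (limma adjusted p = 2.55e-05, 0.000142, 0.000608 and 2.09e-05). The changes differed among populations in UUO (moderated F test, limma adjusted p = 5.85e-05) and in rUUO (0.0128). The endothelial UUO call was lost without sham replicates 1 or 3, UUO replicates 1 or 2 or rUUO replicates 4 or 6 (0.0541 to 0.133), with no filter (0.115), after rescaling without mitochondrial genes (0.0685) and after quantile normalization (0.0776).

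Ier2, a nuclear protein of the immediate early response, rose in stromal cells in both surgeries and passed in PT cells in UUO. Its stromal values were 11.95, 7.96, 6.01 and 6.53 FPKM in sham, 23.7, 24.8, 15.9 and 30.6 in UUO and 16.6, 30.5, 40.3 and 10.1 in rUUO. Its PT values were 0.94, 6.47 and 1.10 in sham, 9.10, 4.25, 7.00 and 6.79 in UUO and 9.14, 6.77 and 5.40 in rUUO. PT sham replicate 2 lay inside the UUO and rUUO ranges, and stromal rUUO replicate 6 inside the sham range. In stromal cells the change was 1.45 in UUO and 1.34 in rUUO (SE 0.36 each, limma adjusted p = 0.00742 and 0.017), the second lost without sham replicate 4 or rUUO replicates 2 or 4 (0.051 to 0.0615) and with no filter (0.0556). In PT cells it was 1.28 in UUO (limma adjusted p = 0.032) and 1.35 in rUUO (0.0877), with 0.07 between rUUO and UUO (0.942). The first was lost without sham replicates 1 or 4 or UUO replicates 1, 3 or 4 (0.06 to 0.143), with no filter (0.121), after rescaling without mitochondrial genes (0.0667) and after quantile normalization (0.237), and the second became 1.98 without sham replicate 2 (limma adjusted p = 0.00354). Macrophage and endothelial values were 0.31 and 0.29 in UUO and 0.71 and 0.53 in rUUO, and none passed (limma adjusted p = 0.684, 0.73, 0.383 and 0.372).

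**Figure D2:**
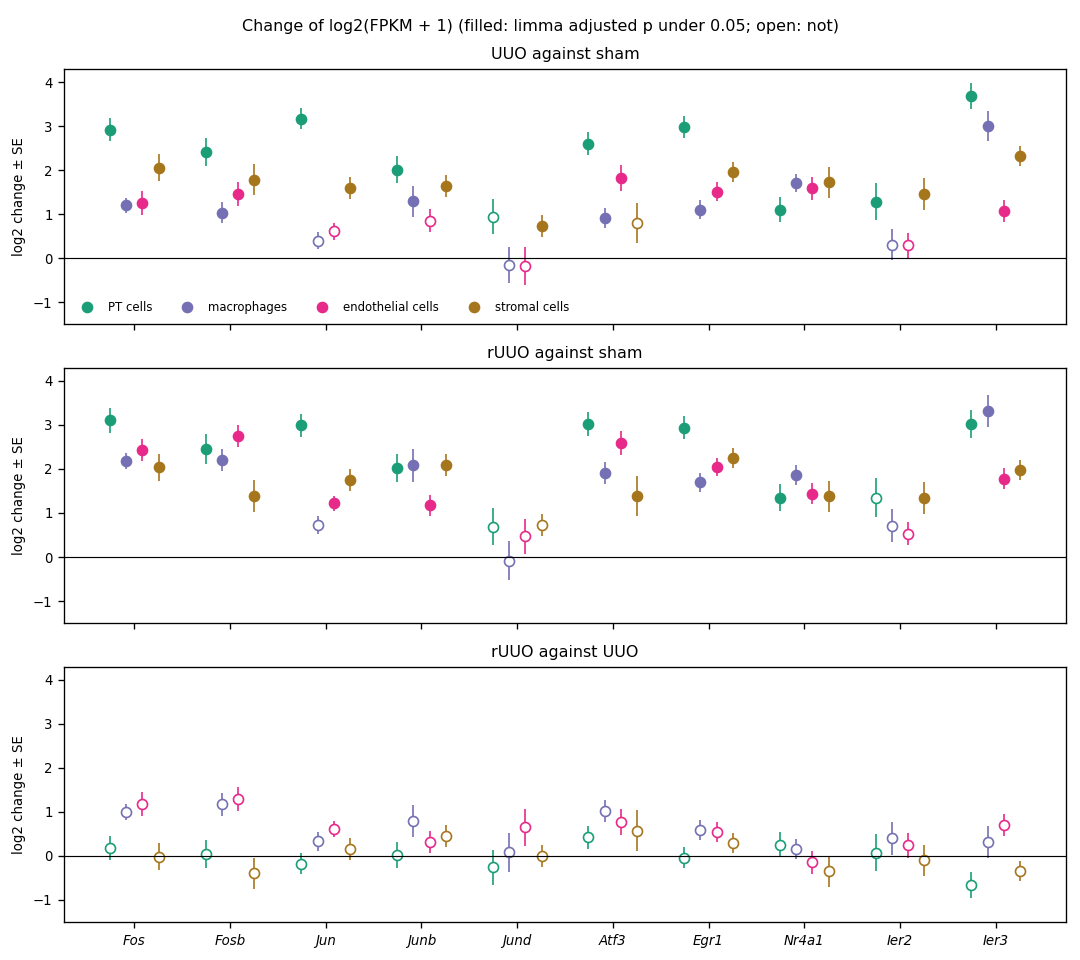
Change of log2(FPKM + 1) with its standard error for each gene (x axis) in the 4 populations (colour), for UUO against sham, rUUO against sham and rUUO against UUO from top to bottom, with filled points past a limma adjusted p of 0.05. Jun changes by 3.17 in PT cells and 0.39 in macrophages in UUO, and no point is filled between rUUO and UUO.

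Counted by population, the calls were set against those of all genes tested, with every call in the direction of higher values after surgery. In PT cells, 7 of the 10 members had a sham mean of at least 1 FPKM, and of these 6 rose in UUO and 5 in rUUO, where 27.9% and 6.52% of 11416 genes were higher. The other 3, Atf3, Ier3 and Nr4a1, had sham means of 0.383, 0.947 and 0.41 FPKM and passed the expression filter, a mean of 1 FPKM over the PT samples, through their UUO and rUUO values, so that a difference was needed for them to be tested. In macrophages, 7 of 10 rose in UUO and 7 in rUUO, where 2.86% and 1.89% of 13332 genes were higher. In endothelial cells, 6 rose in UUO and 8 in rUUO, where 1.28% and 1.40% of 13393 genes were higher. In stromal cells, 9 rose in UUO and 9 in rUUO, where 13.4% and 11.6% of 14033 genes were higher. The number of all genes called in either direction depended on single libraries, from 665 in macrophage UUO to 272 without sham replicate 2 and from 459 in rUUO to 207 without rUUO replicate 4. In endothelial cells it went from 265 in UUO to 146 without UUO replicate 1 and from 237 in rUUO to 119 without rUUO replicate 4. Without macrophage UUO replicate 2, 7 members rose in UUO and 8 in rUUO. The median change of all genes was 0.51 in PT UUO and 0.21 in PT rUUO, and within 0.19 of 0 in the other populations, so that PT changes are read relative to a raised background. In PT UUO 3186 genes were higher and 561 lower, against 1218 and 1217 after quantile normalization, which called 7 members in UUO and 7 in rUUO.

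The groups were also compared without a model. No UUO sample reached down into the sham range for 8 of the 10 members in PT cells, 6 in macrophages, 8 in endothelial cells and 9 in stromal cells, nor did it for 34.5%, 6.04%, 6.17% and 13.2% of all genes tested. The same held between rUUO and sham for 8 members in each population, and for 20.6%, 8.78%, 7.88% and 16.1% of all genes tested. The PT counts include Atf3, Ier3 and Nr4a1, which had to differ to be tested, and without them were 5 of 7 members in UUO and 5 of 7 in rUUO.

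Between rUUO and UUO, limma called none of the 10 members in any population. These groups differ in the reversal, in the further operation it took and in the time since surgery, which cannot be told apart. At an unadjusted p under 0.05 there were 1 member in PT cells, 4 in macrophages, 6 in endothelial cells and 0 in stromal cells, where 21.4%, 7.09%, 10.2% and 19.8% of all genes tested were under it too. At the adjusted threshold, the shares of all genes called in either direction were 3.83%, 0.0%, 0.0597% and 4.17%. The members' median difference was 0.03 in PT cells and -0.01 in stromal cells, against 0.50 in macrophages and 0.63 in endothelial cells. Every rUUO sample lay above every UUO sample for 4 members in macrophages (Fos, Fosb, Egr1 and Atf3) and 5 in endothelial cells (Fos, Fosb, Jun, Atf3 and Ier3), as it did for 3.45% and 9.16% of all genes tested. Fosb was 1.17 higher in rUUO than in UUO in macrophages (SE 0.26, limma adjusted p = 0.204) and 1.29 in endothelial cells (SE 0.28, limma adjusted p = 0.11), against 0.05 in PT cells and -0.40 in stromal cells. Its difference between rUUO and UUO differed among the populations (moderated F test, limma adjusted p = 0.0298), a call lost without endothelial UUO replicate 1, stromal UUO replicate 4 or stromal rUUO replicates 4 or 6 (0.0555 to 0.0628). The same F test passed for Fos without stromal rUUO replicate 2 (0.0146) or endothelial UUO replicate 4 (0.0284), and for Ier3 without macrophage UUO replicate 3 (0.0485). Endothelial Fos, 1.18 higher in rUUO (limma adjusted p = 0.128), passed without UUO replicate 4 (1.504, limma adjusted p = 0.0357). The lowest value was that of PT Ier3, -0.66 (SE 0.30, limma adjusted p = 0.217).

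Over the populations, 5 of the 10 members differed in their UUO change (Fos, Jun, Egr1, Atf3 and Ier3), 1 in rUUO against UUO (Fosb) and 3 in rUUO against sham (Jun, Atf3 and Ier3). Of all 14332 genes, 33.5%, 5.57% and 15.1% did so. For these 5 genes the F test calls in UUO held under every alternative. In UUO the F test also passed for Fosb without PT UUO replicate 1 (0.0431) or macrophage sham replicate 4 (0.0406) and with a pseudocount of 0.1 (0.0288), and for Ier2 without PT sham replicate 2 (0.0249). Without stromal rUUO replicate 2, the rUUO changes of Fos, Fosb and Egr1 also differed among the populations (limma adjusted p = 0.0382, 0.0201 and 0.0473). Egr1 did so too without PT sham replicate 2, macrophage sham replicate 1 or endothelial rUUO replicate 2 (0.035 to 0.0474). In each of the 5 the largest UUO change was that of PT cells.

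Markers of other cells moved with surgery in each gate. The mitochondrial share moved too. In PT cells UUO (58.7% to 66.4%) did not overlap sham (68.9% to 75.6%) or rUUO (68.1% to 71.3%). Macrophage sham (24.6% to 28.0%) and rUUO (20.4% to 23.5%) were separate as well. Stromal sham (34.0% to 45.8%) lay apart from both UUO (21.5% to 26.4%) and rUUO (20.2% to 25.9%). In PT cells the sum over both thick ascending limb markers, Umod and Slc12a1, lay at 17.4 to 22.1 FPKM in sham, whereas UUO samples had 140.1 to 176 and rUUO samples 44.8 to 135. That over 6 proximal tubule markers was 1691 to 2302, 469 to 640.2 and 1047 to 1341. The PT sum over 6 stromal markers was 12.7 to 16.5, 18.4 to 34.0 and 27.6 to 31.9. PT sums over macrophage and over endothelial markers overlapped between sham and either surgery. For sham, UUO and rUUO in turn, the macrophage gate held 3.15 to 8.10, 10.7 to 90.7 and 5.56 to 23.0 FPKM of 4 neutrophil markers, of which Retnlg and Ly6g were at 0 in sham. Over 3 T cell markers it held 0 to 0.72, 1.19 to 30.7 and 4.78 to 21.3, and over 3 B cell markers 1.25 to 2.38, 2.91 to 38.9 and 3.58 to 7.21. Tubular markers were higher in its sham samples, with 80.8 to 99.3, 12.7 to 25.1 and 14.3 to 16.7 FPKM of 6 proximal tubule markers. Over 3 distal tubule and collecting duct markers it held 17.8 to 41.0, 1.73 to 11.3 and 2.78 to 6.20, while the thick ascending limb pair overlapped (34.8 to 62.5, 11.8 to 36.1 and 28.0 to 63.7). The endothelial gate held 24.5 to 41.8, 3.92 to 9.67 and 22.1 to 48.6 FPKM of 2 podocyte markers, 39.4 to 227, 14.9 to 61.7 and 8.80 to 35.7 of 3 distal tubule and collecting duct markers, and 127 to 632, 47.5 to 154 and 56.5 to 195 of the thick ascending limb pair. In stromal cells, 3 distal tubule and collecting duct markers summed to 128 to 297, 1.52 to 8.04 and 4.99 to 19.7, and 6 stromal markers to 744 to 1319, 4637 to 7096 and 2251 to 3275. There the thick ascending limb pair held 236 to 309, 28.0 to 53.9 and 49.1 to 84.2, and the neutrophil markers 0 to 0.42, 5.63 to 53.6 and 0.95 to 34.1. The 6 proximal tubule markers held 34.6 to 59.4, 7.62 to 12.1 and 8.70 to 18.1 in stromal cells. The part of these other cells and of the mitochondrial share in the members' changes was not tested beyond the rescaling without mitochondrial genes.

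Within groups, the levels of most of these genes tended to vary together. Over the deviations of the 44 samples from their 12 group means, the 45 pairs of members had a median Pearson's r of 0.37, from -0.03 to 0.71, and 11 pairs exceeded 0.5. These are descriptions over samples that share a library, its composition and its scaling. No r over pairs of other genes was computed to set beside them, so that they are not shown to be particular to the members. Fos and Egr1 (0.71) and Junb and Jund (0.67) were the closest pairs, and Ier3 had the lowest median with the other members (0.11). The mean deviation of the 10 members was highest in stromal UUO replicate 4 (0.53), stromal rUUO replicate 2 (0.50) and macrophage UUO replicate 3 (0.38). It was lowest in macrophage UUO replicate 2 (-0.57), where 0 of 10 members exceeded the group mean, and in stromal rUUO replicate 6 (-0.48), also with 0 of 10. This mean deviation had r = -0.45 with the deviation of the sample's mitochondrial share from its group mean. With the mean deviation of 11 heat shock genes, which dissociation also induces, it had r = 0.21.

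**Figure D3:**
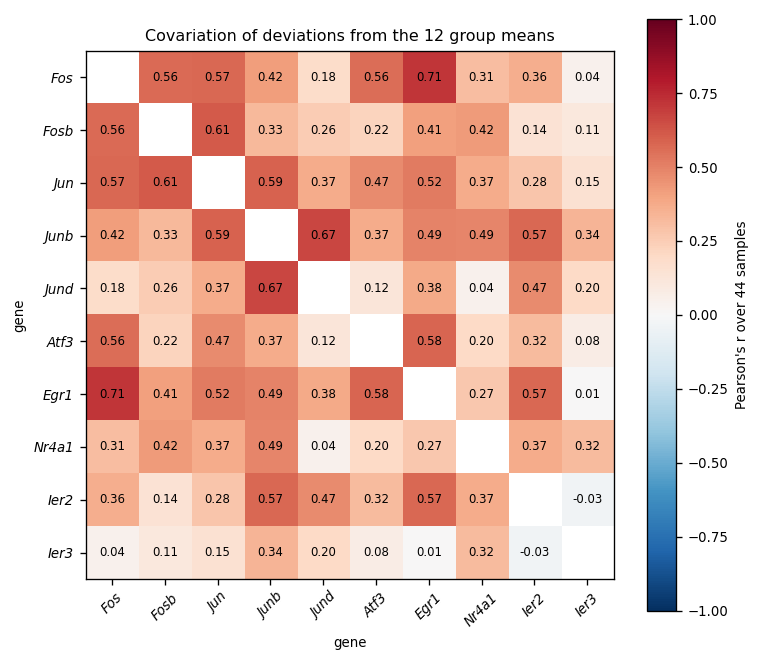
Pearson's r between the members (both axes) over the deviations of 44 samples from their group means, with the diagonal blank and colour from -1 to 1. Fos and Egr1 give the highest value, 0.71, and the Ier3 row is the palest, with a median of 0.11.

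The other genes of the pathway were described from 6 lists. Of the other AP-1 and small Maf subunits, Fosl2, a slowly induced Fos relative, and Maff, a small Maf protein, were among those that rose. The shares of all genes that rose in UUO were 27.9% in PT cells, 2.86% in macrophages, 1.28% in endothelial cells and 13.4% in stromal cells, and 4.91%, 2.13%, 0.702% and 13.0% fell, against which the UUO counts of each list are read. The expression filter bears on the lists too. In PT cells Maff (sham mean 0.0733 FPKM), Phlda1 (0.547), Cd44 (0.41) and Mapk7 (0.75) were tested only through their higher UUO and rUUO values. The same held for Nr4a3 in macrophages (0.6825), Egr2 (0.6725) and Ccl2 (0.7025) in endothelial cells and Maff (0.885) in stromal cells. List genes that stayed low were not tested, so that the counts and medians of the lists lean towards rises. Of the subunits tested, 3 of 6 rose in PT UUO, 1 of 10 in macrophages, 1 of 10 in endothelial cells and 2 of 11 in stromal cells, where 1 fell, and list medians were 0.74, -0.13, -0.07 and -0.01. Fosl2 was 2.22 ± 0.543 FPKM in PT sham (SD, n = 3), 14.6 ± 3.95 in UUO (n = 4) and 11.4 ± 1.88 in rUUO (n = 3), a UUO rise of 2.25 (limma adjusted p = 3.82e-05). In macrophages it went from 5.84 ± 2.13 (SD, n = 4) to 32.7 ± 4.55 (n = 4) and 60.2 ± 15.8 (n = 3), or 2.34 in UUO and 3.18 in rUUO (limma adjusted p = 0.000126 and 2.57e-05). The subunit that fell was Batf in stromal UUO, from 3.93 ± 0.946 to 0.343 ± 0.295 FPKM (SD, n = 4 each; -1.88, limma adjusted p = 0.00213).

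Of the 29 other immediate early genes, 19 of 21 tested rose in PT UUO, 7 of 26 in macrophages, 4 of 26 in endothelial cells and 10 of 27 in stromal cells, where 1 fell. Their medians were 1.76, 0.64, 0.30 and 0.78, against 0.51, -0.03, 0.03 and -0.07 over all genes tested. In rUUO, 10 of 21, 9 of 26, 5 of 26 and 11 of 27 stood above sham, with 1 below it in macrophages and 1 in stromal cells. Of all genes tested, 6.52%, 1.89%, 1.4% and 11.6% stood above sham in rUUO, and 108, 207, 49 and 781 genes stood below it. Egr2, a relative of Egr1, rose in stromal cells from 11.2 ± 1.49 to 99.5 ± 25.3 FPKM in UUO and 121 ± 14.5 in rUUO (SD, n = 4 each; 3.01 and 3.32, limma adjusted p = 7.7e-08 and 7.79e-08). Socs3, a suppressor of cytokine signalling, rose in endothelial cells from 3.66 ± 1.12 (SD, n = 4) to 16.96 ± 2.89 (n = 3) and 26.0 ± 5.91 (n = 4), or 1.96 and 2.54 (limma adjusted p = 0.00142 and 6.77e-05). In PT cells the small GTPase gene Rhob rose by 3.503 in UUO (limma adjusted p = 4.19e-07) and was the list's only gene called between rUUO and UUO, with a difference of -1.503 in rUUO (limma adjusted p = 0.01).

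Of the feedback inhibitors, which shorten the response, Zfp36 passed in each population in at least 1 surgery. In UUO, 6 of 10 tested rose in PT cells, 2 of 9 in macrophages, 0 of 12 in endothelial cells and 3 of 12 in stromal cells, where 1 fell, with medians of 1.12, 0.26, -0.02 and 0.22. Zfp36, which destabilises AU-rich transcripts, rose in macrophages from 269 ± 19.9 (SD, n = 4) to 589 ± 103 (n = 4) and 871 ± 106 FPKM (n = 3), or 1.12 and 1.69 (limma adjusted p = 0.0011 and 9.65e-05). Dusp1, a phosphatase of MAP kinases, rose there by 0.74 and 1.41 (limma adjusted p = 0.0473 and 0.00184). Spry4, an inhibitor of receptor tyrosine kinase signalling, fell in stromal cells by 1.84 on the log2 scale in UUO (limma adjusted p = 0.00166). Of 16 upstream kinases and transcription factors, all of them tested, 5 rose in PT UUO, a share near the 27.9% of all genes, none passed in macrophages or endothelial cells (limma), and 1 rose and 1 fell in stromal cells. Their medians of 0.58, -0.05, 0.15 and 0.12 stood against the same medians of all genes.

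Of 13 genes known as AP-1 targets, 8 of 9 tested rose and 1 fell in PT UUO, and 9 of 13 rose and 1 fell in stromal UUO, with medians of 2.09 and 1.78. In macrophages 3 rose and 2 fell of 11, and in endothelial cells 3 of 9 rose. Timp1, an inhibitor of matrix proteases, rose in stromal cells from 9.78 ± 5.81 to 612 ± 591 FPKM in UUO and 337 ± 90.6 in rUUO (SD, n = 4 each; 5.56 and 5.07, limma adjusted p = 6.08e-07 and 2.68e-06). Spp1, which encodes osteopontin, went in PT cells from 174 ± 24.3 (SD, n = 3) to 3124 ± 402 (n = 4) and 695 ± 119.7 FPKM (n = 3), and fell by 2.17 on the log2 scale between UUO and rUUO (limma adjusted p = 4.54e-05). The collagenase gene Mmp13 fell in macrophages from 164 ± 11.3 (SD, n = 4) to 12.5 ± 3.99 FPKM (n = 4) in UUO (-3.67, limma adjusted p = 5.46e-06).

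Heat shock genes, which respond to protein damage, moved in part. Of 11, 5 rose and 2 fell in PT UUO, 1 rose in macrophages, 1 in endothelial cells and 4 in stromal cells, with medians of 0.58, 0.24, 0.32 and 0.53. In rUUO, 3, 2, 4 and 6 stood above sham, where 6.52%, 1.89%, 1.4% and 11.6% of all genes did. The list medians there were 0.46, 0.63, 0.69 and 0.62, against 0.21, -0.03, 0.19 and 0.15 over all genes tested. Hspa1a, which encodes an inducible HSP70 and can share fragments with its near-identical neighbour Hspa1b, rose in PT cells from 1.55 ± 0.261 (SD, n = 3) to 20.8 ± 7.14 (n = 4) in UUO and 15.7 ± 4.89 FPKM (n = 3) in rUUO, or 3.04 and 2.67 (limma adjusted p = 4.41e-06 and 8.53e-05). The part of cell handling in these values was not tested.

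**Figure D4:**
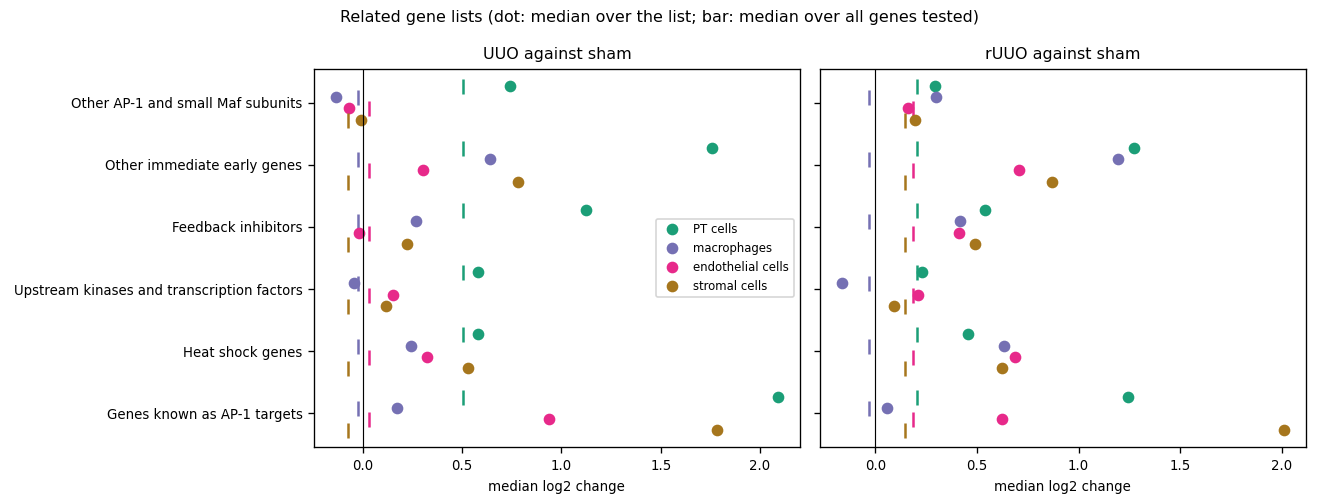
Median log2 change of 6 related gene lists (y axis, dots) in the 4 populations (colour) for UUO and rUUO against sham, with short bars at the median of all genes tested in the same comparison. The other immediate early genes lie at 1.76 in PT UUO against a bar at 0.51, and the upstream kinases and transcription factors at 0.58.

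Across all 44 samples, the genes outside the list whose log2(FPKM + 1) was most like that of a member were Socs3 for Fos (Pearson's r = 0.92), Fosb (0.91) and Ier3 (0.88), Icam1 for Jun (0.93), Btg2 for Junb (0.93), Vcam1 for Egr1 (0.92), Nfkbiz for Atf3 (0.90), Tubb5 for Nr4a1 (0.92), Dusp1 for Ier2 (0.88) and Lars for Jund (0.79). The points share the differences between populations and surgeries, which set most of r. After the 12 group means were removed, Jun was most like Btg2 (0.83) and Atf3 most like Sdf4 (0.73), out of 14332 genes.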

How the data were processed

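Sorted-cell RNA was amplified (Ovation RNA-Seq System V2) and sequenced in pairs of 150 bases. The authors deposited FPKM for 53465 genes on mm10 (GRCm38), to 2 decimals, and the submitters' processing notes name FastQC, Bowtie2, RSEM and DESeq2 without role or version. Of 46 value columns 44 were used, since 2 carry the name of the same endothelial sample, and the third PT sham sample has no column of its name. A PT sample titled both SHAM and UUO was grouped by its treatment label. The members and the lists were chosen with earlier results of these data known.

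Genes that averaged 1 FPKM or more in the samples of a fit were tested by limma 3.58.1 (R 4.3.3; lmFit, eBayes with a trend) on log2(FPKM + 1), two-sided, with Benjamini-Hochberg adjustment over all genes tested. Each population was fitted with its 3 surgeries. Sham populations and the moderated F test of the difference among populations used all 44 samples. The scripts were tested on simulated data. Alternatives were a pseudocount of 0.1, no filter, FPKM rescaled without the 37 mitochondrial genes, quantile normalization, replicates left out in turn, a replicate block and a fit on all populations. Samples were fitted as unpaired, although the labels do not say whether populations with the same replicate number share a mouse. From each related list, at most the 2 called genes with the largest change per comparison could be named, and for each member the genes with the highest r. Sequences and motifs were read with Python 3.11.15. Depth is unknown.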

Additional observations from a re-analysis of the deposited data

Results flagged for a closer look

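Among 80 groups of 4 samples, 2 held a sample whose gap to its nearest neighbour exceeded Dixon's 95% critical value as a share of the group's range on the log2(FPKM + 1) scale, where chance gives about 1 in 20. Nr4a1 in PT UUO replicate 1 was the lowest of its group at 1.62 FPKM, with a gap of 0.868 of the range. Nr4a1 in endothelial sham replicate 1 was the highest of its group at 10.23 FPKM, with a gap of 0.93 of the range.

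The change in UUO against sham differed among the 4 populations for 5 members by the moderated F test. The limma adjusted p was 0.0012 for Fos, 8.37e-09 for Jun, 0.000186 for Egr1, 0.00585 for Atf3 and 5.85e-05 for Ier3. In rUUO against sham it was 1.34e-05 for Jun, 0.0465 for Atf3 and 0.0128 for Ier3. In rUUO against UUO the difference passed for Fosb (limma adjusted p = 0.0298).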

How the results depend on the processing

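Of the 63 calls of members within a population, 46 held under every alternative, and calls lost to a left-out library or another scaling are named beside their genes above. Depth is unknown, so that its limit cannot be given.

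Counts of members called changed by over 1.5 times in few cases. In macrophages UUO against sham gave 4 with no filter, in place of 7, and in endothelial cells rUUO against UUO gave 1 with the fit on all populations, in place of 0. PT against stromal sham gave 6 after quantile normalization, in place of 10. The F test of rUUO against UUO gave 0 with no filter and 0 after quantile normalization, in place of 1, and that of rUUO against sham gave 5 with a pseudocount of 0.1 and 5 without mitochondrial genes, in place of 3. With each replicate left out, the counts ran from 4 to 7 in macrophages UUO against sham, 0 to 1 in endothelial rUUO against UUO, 3 to 6 in endothelial against stromal sham, 0 to 2 in the F test of rUUO against UUO and 2 to 6 in that of rUUO against sham. The cause was not tested.

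Over all genes, counts of calls also moved. With no filter PT rUUO against sham gave 484 (852 before), macrophages 364 (665) in UUO and 303 (459) in rUUO against sham, and endothelial cells 127 (265) and 116 (237). With each replicate left out, the counts against sham ran from 2573 to 3888 in PT UUO, 566 to 810 in PT rUUO, 272 to 736 and 207 to 653 in macrophages, 146 to 231 and 119 to 336 in endothelial cells, and 2963 to 3717 and 1912 to 2561 in stromal cells. The fit on all populations gave 1018 and 753 in macrophages and 423 and 452 in endothelial cells. Quantile normalization gave 2435 in PT UUO (3747), and the share of higher calls went from 87.3% to 68.6% in PT rUUO against sham, 79.3% to 61.1% in the endothelium and 67.6% to 51.5% in the stroma, and in sham PT cells from 19.3%, 13.9% and 11.3% to 49.7%, 48.9% and 48.2% against the other 3 populations.

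The samples were fitted as unpaired, and the labels do not say whether populations with the same surgery and replicate number share a mouse. Of 35 pairs with the same number, population and another surgery, 1 had a correlation of deviations over 0.1, with a median of 0.01. Of 57 pairs with the same number, surgery and another population, 2 exceeded 0.1, with a median of 0.0093 and a highest value of 0.17. Low correlations over all genes cannot show that these populations came from different mice. Tests across populations may therefore treat samples of a shared mouse as independent. With the replicate block, calls over all genes numbered 346 and 115 in macrophages, 101 and 68 in endothelial cells and 1574 in stromal rUUO against sham (2407 before), endothelial UUO against sham gave 3 members, in place of 6, and the F test of rUUO against UUO gave 2, in place of 1. The block ended calls that otherwise held, those of Nr4a1 in endothelial UUO (limma adjusted p = 0.0506) and rUUO (0.079) against sham and of Junb in macrophage rUUO against sham (0.0542), and also that of Nr4a1 in PT rUUO against sham (0.0617). Fos passed the F test of rUUO against UUO under it (0.0473). Signs turned for Fosb (-0.080) and Junb (-0.018) in PT rUUO against UUO, Jund in macrophage rUUO against sham (0.29) and endothelial UUO against sham (0.14), and Fos (0.10), Jund (0.090), Ier2 (0.093) and Nr4a1 (0.034) in stromal rUUO against UUO, none of which had passed.

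Without mitochondrial genes, signs turned for Jun (0.013) and Egr1 (0.15) in PT rUUO against UUO, for Ier2 (-0.18) and Nr4a1 (-0.25) between macrophage and endothelial sham, and for Fosb (-0.21), Jund (-0.11), Egr1 (-0.22) and Nr4a1 (-0.24) between macrophage and stromal sham. After quantile normalization they turned for Jun (0.030), Jund (0.034) and Egr1 (0.14) in PT rUUO against UUO, Fos in stromal rUUO against UUO (0.014), Jund in PT against endothelial (0.16) and stromal (0.12) sham, and Atf3 in endothelial against stromal sham (0.19). Of these only both Jund differences had passed.

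With each replicate left out, signs turned in values that had not passed. In PT rUUO against UUO the range was -0.0096 to 0.43 for Fos, -0.21 to 0.28 for Fosb, -0.23 to 0.26 for Junb, -0.19 to 0.10 for Egr1 and -0.11 to 0.23 for Ier2. In macrophages Jund ranged from -0.41 to 0.22 in UUO against sham, -0.30 to 0.38 in rUUO against UUO and -0.33 to 0.22 in rUUO against sham, and Ier3 from -0.037 to 0.60 in rUUO against UUO. Endothelial Jund ranged from -0.54 to 0.14 in UUO against sham. In stromal rUUO against UUO the range was -0.34 to 0.24 for Fos, -0.079 to 0.39 for Jun, -0.14 to 0.16 for Jund, -0.40 to 0.23 for Ier2 and -0.63 to 0.048 for Nr4a1. In sham, macrophages against endothelial cells gave -0.017 to 0.38 for Ier2 and -0.0068 to 0.23 for Nr4a1, and endothelial against stromal cells gave -0.51 to 0.086 for Jund, -0.24 to 0.18 for Atf3 and -0.076 to 0.18 for Nr4a1.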
